A study of Rattus norvegicus with 38 samples.

Results

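The 7 genes described here are the mitochondrially encoded subunits of respiratory complex I, Mt-nd1, Mt-nd2, Mt-nd3, Mt-nd4, Mt-nd4l, Mt-nd5 and Mt-nd6. They were taken by their Ensembl gene IDs (IDs below) from a count table of 32883 IDs, in which all 7 were found. In the order above the IDs are ENSRNOG00000030644, ENSRNOG00000031033, ENSRNOG00000033615, ENSRNOG00000029707, ENSRNOG00000031053, ENSRNOG00000029971 and ENSRNOG00000029042. The table pairs no names with its IDs, so the names rest on the list of IDs that defined the set. Their levels were followed over 38 libraries from the brain cortex of 19 rats, with 1 library per rat from blood vessels and 1 from clusters of neurons, both cut out with a laser.

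Complex I, the NADH:ubiquinone oxidoreductase, takes electrons from NADH at the start of the respiratory chain and pumps protons across the inner mitochondrial membrane. The mitochondrial genome encodes the core subunits of its membrane arm, and all other subunits come from the nucleus. Mitochondrial genes are transcribed as long RNAs that are cut into single messages. Mt-nd6 is read from the light strand, the other members from the heavy strand, and Mt-nd4l and Mt-nd4 share a single message with overlapping reading frames. Neurons and the cells of cortical vessels both depend on mitochondria, and the 3′ libraries used here count message ends rather than protein or enzyme activity.

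The strains were Wistar and SHRSP, the stroke-prone spontaneously hypertensive rat. Animals were 24 to 25 weeks old at the early stage and 32 to 34 weeks old at the late stage. Early Wistar, early SHRSP and late SHRSP had 5 animals each and late Wistar had 4, all without a treatment in the labels. Strain and blood pressure cannot be told apart in these groups, and sex is not given in the labels. The comparisons ask how strain, stage and tissue bear on the levels of the 7 messages.

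Vessel libraries held 1612966 to 4963429 counts and neuron libraries 1198386 to 4101901. A single ID, ENSRNOG00000043866, was the most abundant and made up 6.45% to 40.6% of a vessel library and 4.34% to 35.5% of a neuron library. Levels are therefore given as CPM, counts scaled to the same total in every library, and where it matters as CPM of the total without that ID. Of the 10 early animals, 8 had fewer than 9000 IDs detected in their vessel library and a share of ENSRNOG00000043866 of 4.34% to 10.7% in their neuron library. The other early animals, Wistar 349 and SHRSP 383, and all 9 late animals had at least 9875 IDs in vessels and shares of 20.4% to 35.5% in neurons. This split into animals with few and many IDs runs nearly along the stages, so that stage and library properties cannot be fully told apart. Markers of vessel cells, neurons and glia were not checked here, since the IDs carry no names.

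The complex I messages together made up 1.49% to 5.16% of all counts in vessel libraries (median 1.95%) and 0.827% to 2.02% in neuron libraries (median 1.08%). A 3′ library counts message ends, so CPM is not divided by gene length here. The order of the genes below is that of their counts, and equal capture of the messages was not tested. Mt-nd1 was the most abundant member, with 11476 CPM ± 5388 in vessels and 5659 ± 2231 in neurons (SD, n = 19 each). Mt-nd2 followed with 7478 CPM ± 3437 in vessels and 3885 ± 983 in neurons (n = 19 each). Mt-nd1 exceeded Mt-nd2 in 18 of 19 vessel and 17 of 19 neuron libraries, and Mt-nd2 exceeded Mt-nd5 in all 38.

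Mt-nd5, the largest of these subunits, stood at 1840 CPM ± 470 in vessels and 1090 ± 265 in neurons (SD, n = 19 each). Mt-nd3, a small subunit at the joint of the complex's arms, had 1433 CPM ± 716 and 777 ± 290. These neighbours in the order did not differ beyond their spread: Mt-nd5 was above Mt-nd3 in 12 of 19 vessel and 13 of 19 neuron libraries. Mt-nd6 had 505 CPM ± 254 in vessels and 665 ± 319 in neurons. It was below Mt-nd3 in 17 of 19 vessel libraries but only in 12 of 19 neuron libraries, and its mean passed that of Mt-nd3 in late neurons of both strains. Mt-nd4l was lower still, with 194 CPM ± 159 and 173 ± 94.4, and lay below Mt-nd6 in 17 of 19 vessel and 19 of 19 neuron libraries.

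**Figure D1:**
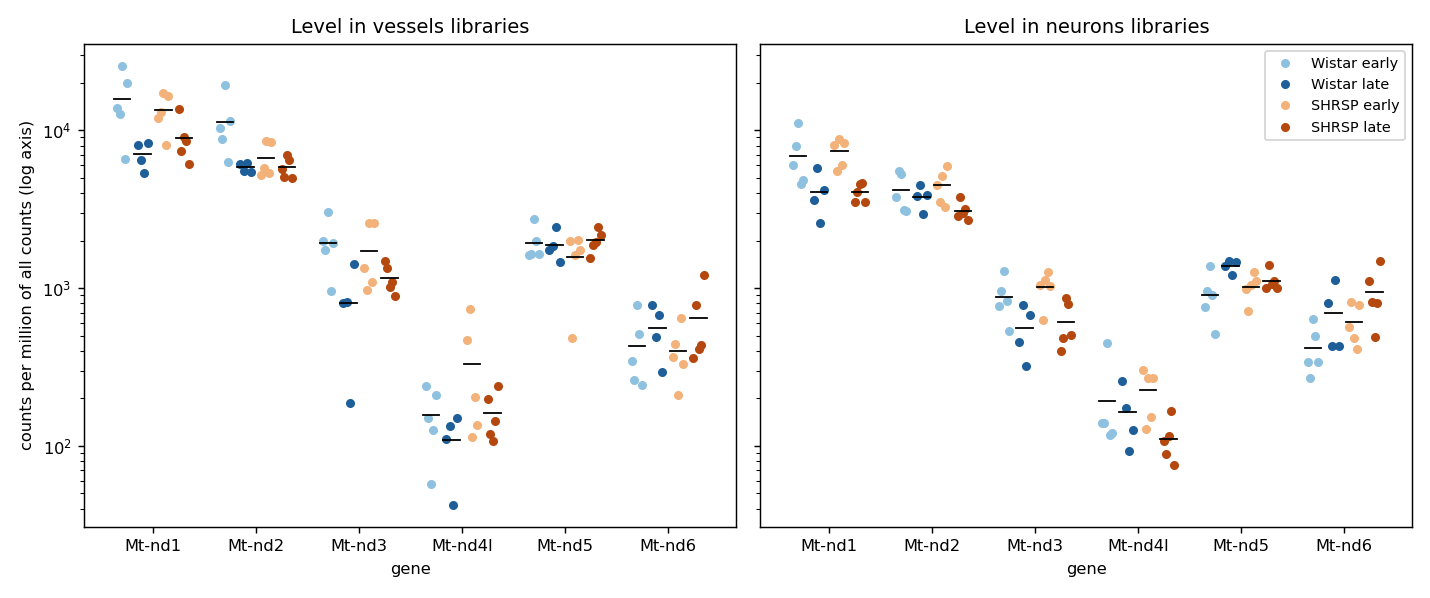
CPM of 6 complex I genes (log axis) in the 19 vessel libraries (left) and the 19 neuron libraries (right), by strain and stage; points are animals and bars are group means. Mt-nd1 and Mt-nd2 lie above the other genes in every group, and Mt-nd4, at or near 0, is left out.

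Mt-nd4 was hardly counted. It had 47 counts in all, in 2 vessel and 8 neuron libraries, with at most 11 counts in a library, and 28 of 38 libraries had none. In the libraries without a count, the level allowed by 3 counts was 0.604 to 1.86 CPM. The reading frame that shares its message, Mt-nd4l, had 42.3 to 733 CPM in the vessel libraries and 75.6 to 446 CPM in the neuron libraries. How reads in overlapping genes were assigned cannot be read from the sources used here, so neither the near absence of Mt-nd4 nor the level of Mt-nd4l can be taken as the amount of their shared message. Mt-nd4 did not pass the filter on low counts, and the tests below cover the other 6 members. The strand setting of the counting is not given either, so reads of Mt-nd6 and of RNA from the opposite strand cannot be told apart.

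Several of the complex I messages were higher in vessels than in neurons of the same animals. In edgeR's quasi-likelihood test over 38 libraries with the animal as a block, 4 of the 6 tested members were higher in vessels, namely Mt-nd1, Mt-nd2, Mt-nd3 and Mt-nd5. Over all 12117 IDs tested, 50.5% passed an adjusted p of 0.05, but only 3.08% passed as higher in vessels. The median log2 difference was 0.71 over the 6 members and -1.63 over all IDs. Without the block the same 4 members passed, but 3075 rather than 6124 of all IDs did, and the median over all IDs was -0.38. Vessel libraries detected fewer IDs than neuron libraries (4104 to 11974 against 9501 to 14305), and the part of this in the differences was not tested. In tissue pieces of this kind, fewer cells of a type and less RNA per cell cannot be told apart.

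For Mt-nd1, the vessel level over the neuron level of the same animal lay between 0.16 and 2.05 on the log2 scale (median 0.98). All 19 animals had the higher CPM in vessels, with the largest ratios in early Wistar animal 368 and late SHRSP animal 378. In the edgeR test Mt-nd1 was 1.93-fold higher (log2 difference 0.95, SE 0.07, adjusted p = 1.04e-35). The spread of its 19 ratios gave a larger SE, 0.105. Mt-nd2 had log2 ratios of 0.21 to 1.88 (median 0.73), again above 0 in 19 of 19 animals. Its fitted difference was 1.80-fold (log2 0.85, SE 0.08, adjusted p = 4.48e-21), and the SE from its 19 ratios was 0.107. Both adjusted p-values rest on a spread that edgeR estimates over all IDs, not on these 19 ratios alone. For Mt-nd3 and Mt-nd5, described next, the SE from the ratios was below the fitted SE (0.161 and 0.114).

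Mt-nd5 was higher in vessels in 18 of 19 animals, with log2 ratios from -0.56 in early SHRSP animal 377 to 1.69. Its fitted log2 difference was 0.69 (SE 0.14, adjusted p = 4.40e-05 in edgeR). Mt-nd3 was higher in 17 of 19 animals, with ratios from -0.76 to 1.89 and a fitted difference of 0.74 (SE 0.16, adjusted p = 0.00015). The Mt-nd3 call was lost in the 11 animals with many IDs alone (log2 difference 0.28, adjusted p = 0.42), while the other 3 calls held there. A permutation test of the signs of the 19 differences gave p = 2e-05 for Mt-nd1, 1e-05 for Mt-nd2, 0.00019 for Mt-nd3 and 3e-05 for Mt-nd5 (100000 resamples, two-sided, unadjusted), of which 1e-05 is the smallest that number of resamples can give. The same permutation test gave p = 0.00741 for Mt-nd6, which was lower in vessels, and 0.952 for Mt-nd4l.

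The remaining tested members did not follow. Mt-nd4l was higher in vessels in 11 of 19 animals, with ratios scattered from -2.97 to 2.52 and a fitted difference of -0.03 (95% interval -0.73 to 0.68). Mt-nd6, the light-strand gene, was lower in vessels in 14 of 19 animals, with ratios from -1.62 to 0.66. Its fitted difference of -0.42 (95% interval -0.82 to -0.02, adjusted p = 0.0685 in edgeR) did not pass, although it did when animal 374 or 377 was left out (adjusted p = 0.0355 and 0.0112).

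**Figure D2:**
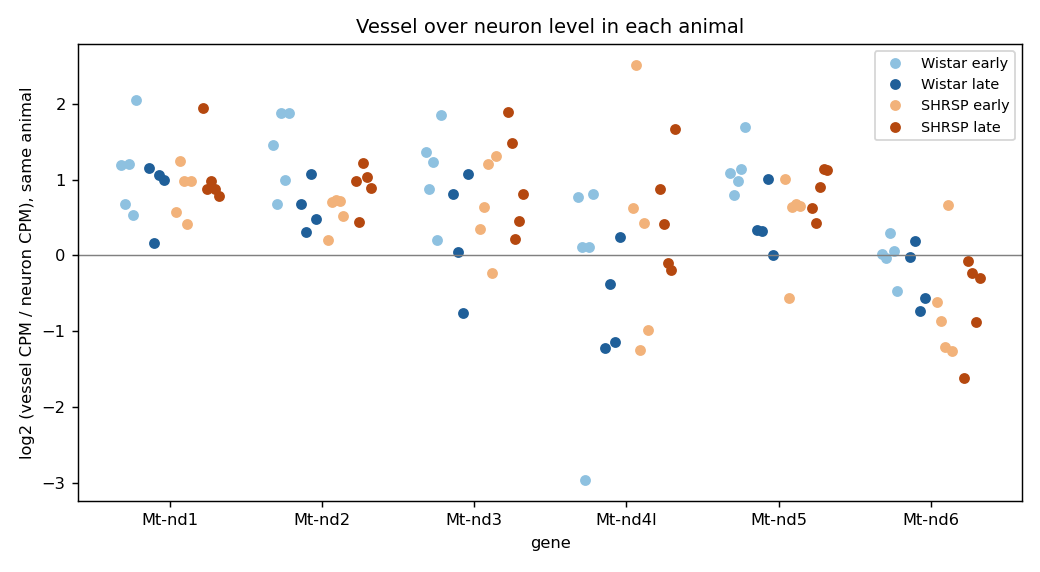
Log2 ratio of vessel CPM to neuron CPM within each of the 19 animals for 6 genes, coloured by strain and stage. Mt-nd1 and Mt-nd2 are above 0 in every animal, Mt-nd4l scatters from -2.97 to 2.52, and Mt-nd6 is below 0 in 14 animals.

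Between the strains, Mt-nd2 was lower in early SHRSP vessels than in early Wistar vessels. Mt-nd2 encodes a core proton-pumping subunit. Its CPM was 5186, 5774, 8495, 5374 and 8472 in SHRSP animals 374, 377, 380, 383 and 386. In Wistar animals 340, 343, 346, 349 and 368 it was 10304, 8819, 19476, 6280 and 11369. These ranges overlap only through Wistar animal 349, in whose vessel library ENSRNOG00000043866 took 40.6% of the counts.

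With that ID left out of the total, the SHRSP libraries held 5610 to 9130 CPM of Mt-nd2 and the Wistar libraries 10250 to 22292 CPM. The groups then did not overlap, which was so for 0.717% of all IDs tested. The means were 7313 CPM ± 1670 in SHRSP and 13602 ± 4966 in Wistar (SD, n = 5 each). The edgeR fit put Mt-nd2 1.85-fold lower in SHRSP (log2 difference -0.89, SE 0.17, adjusted p = 0.000405), the fifth smallest p of 11011 IDs. It was the only 1 of 6 members that passed, against 0.254% of all IDs, and 0.0363% that passed as lower in SHRSP.

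The other members did not pass in early vessels. Mt-nd1 had a log2 difference of -0.33 (SE 0.21), Mt-nd3 of -0.30 (SE 0.31), Mt-nd5 of -0.45 (SE 0.28), Mt-nd6 of -0.31 (SE 0.46) and Mt-nd4l of 1.07 (SE 0.73). The median over the 6 was -0.32, beside -0.20 over all IDs. An exact permutation test of Mt-nd2 gave p = 0.0476 on log2 CPM and p = 0.00794 without the most abundant ID (two-sided, unadjusted), the latter being the smallest that 5 against 5 animals allow. On log2 CPM scaled as in the fit, the SE from the animals' own spread of Mt-nd2 was 0.29, against 0.17 in edgeR. Within the 8 animals with few IDs the Mt-nd2 difference was -0.99 (SE 0.25, adjusted p = 0.0267), with 11 of 4676 IDs passing. It was lost without Wistar animal 346 (-0.56, adjusted p = 0.124), with DESeq2-type size factors (-0.74, adjusted p = 0.0669) and in DESeq2 (-0.74, adjusted p = 0.335). With these size factors 55 of 11011 IDs passed. DESeq2 called 486 of 11011 IDs, 334 of them lower in SHRSP, but not Mt-nd2.

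The groups were also separate on a measure that no scaling can move. Of the counts of the 7 genes, Mt-nd2 took 24.3%, 26.9%, 28.1%, 31.0% and 28.5% in the early SHRSP vessel libraries, in the order of animals above. In the early Wistar vessel libraries it took 36.4%, 34.8%, 37.7%, 38.2% and 32.2%. All Wistar values lay above all SHRSP values. The measure is defined for the 7 genes alone, so no share over all IDs can be set beside it. Animal 346, whose complex I genes summed to 51619 CPM, the highest of all libraries, lay within the range of its group on this measure.

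**Figure D3:**
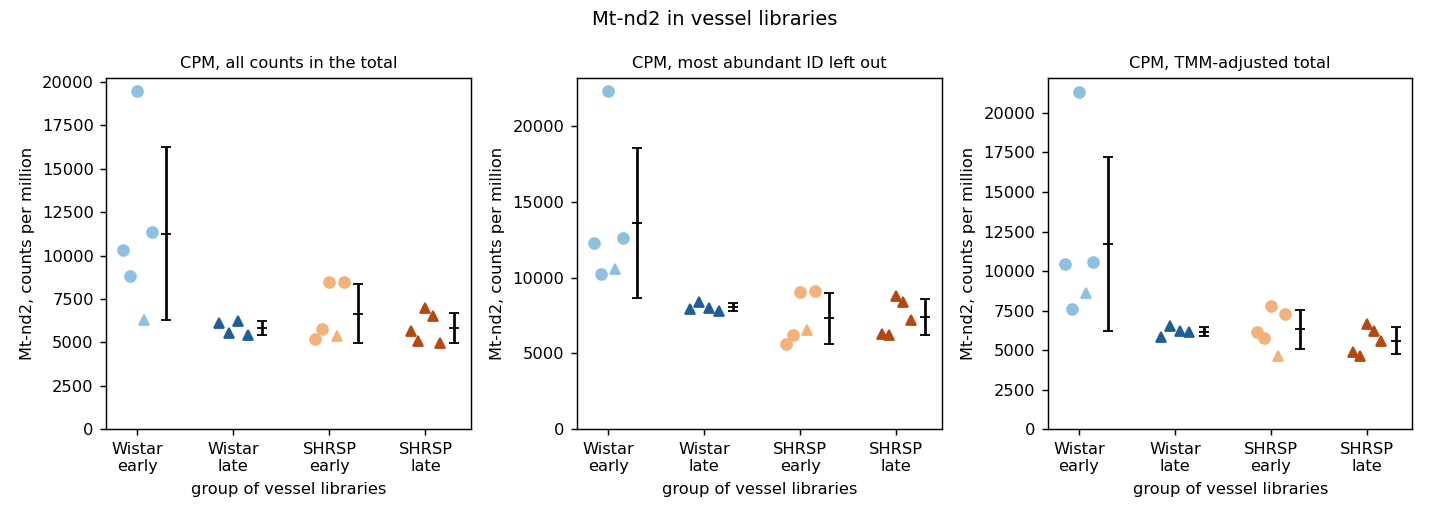
Mt-nd2 in the 19 vessel libraries by group, as CPM of all counts, CPM without the most abundant ID and CPM of the TMM-adjusted total; points are animals (circles, few IDs detected; triangles, many) with mean ± SD. In the middle panel all 5 early Wistar libraries lie above all other libraries.

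In late vessels no member passed in edgeR for the strain difference, nor did any ID (0% of 11011), and 0 of the 6 members had an unadjusted p under 0.05. DESeq2 also called no member, and 11 of 11011 IDs. Mt-nd2 stood at 4963 to 6958 CPM in the 5 SHRSP libraries and at 5452 to 6233 CPM in the 4 Wistar libraries, with the Wistar range inside the SHRSP range. Its fitted log2 difference was -0.14 (95% interval -0.49 to 0.21). The change of the Mt-nd2 strain difference from early to late was 0.75 (SE 0.25, unadjusted p = 0.00248) but did not pass after adjustment (adjusted p = 0.468), so the stages are not shown to differ. In edgeR 0 of 6 members passed for this change, against 0.00908% of IDs, that is 1 ID. Mt-nd2 was the 1 member whose p before adjustment was under 0.05. DESeq2 called none of the members but 130 of 11011 IDs.

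Averaged over both stages, Mt-nd2 was again the only member of 6 that passed in vessels, 1.43-fold lower in SHRSP (log2 difference -0.52, SE 0.12, adjusted p = 0.0362 in edgeR), against 0.0817% of all IDs and 0.00908% that passed as lower. This average rests on the early libraries and on single animals. It no longer passed in 17 of 28 alternatives, among them leaving out any of 10 animals (346, 350, 351, 353, 354, 368, 378, 379, 383 or 386, with adjusted p of 0.0581 to 0.324).

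Mt-nd2 was lower in late than in early Wistar vessels. This comparison shares its 5 early Wistar libraries with the strain difference above and is not independent of it. Early Wistar values are given above, and the late libraries held 6118, 5545, 6233 and 5452 CPM in animals 350, 351, 353 and 354. All 4 late libraries were below all 5 early ones on this scale and without ENSRNOG00000043866 (7787 to 8403 against 10250 to 22292 CPM). Such a separation was found for 4.01% and 3.60% of all IDs on these scales. The edgeR fit gave a 1.90-fold decrease (log2 difference -0.92, SE 0.18, adjusted p = 0.00531), and Mt-nd2 was the only ID among 11011 that passed (0.00908%). The SE from the animals' own spread of Mt-nd2, on log2 CPM scaled as in the fit, was 0.26.

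Mt-nd1 stood beside it. Its early Wistar vessel libraries had 13811, 12685, 25548, 6581 and 19923 CPM, and the late ones 8037, 6463, 5383 and 8293 CPM. Animal 349, the early Wistar animal with many IDs, lay among the late values, and the other 4 early libraries lay above all of them. The log2 difference of -1.10 (SE 0.22) had the second smallest p of all IDs and just missed the threshold (adjusted p = 0.0588 in edgeR). Mt-nd3 had -1.18 (SE 0.34, adjusted p = 0.718) and the fourth smallest p, with 188 to 1421 CPM late against 962 to 3014 CPM early.

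Which of these genes passed in Wistar vessels depended on the fit. With DESeq2-type size factors, Mt-nd1 passed (adjusted p = 0.000665) and Mt-nd2 did not (adjusted p = 0.108). Both passed with TMM after ENSRNOG00000043866 was left out (adjusted p = 0.000106 and 0.0101). In these fits 3 of 11011 and 3 of 11128 IDs passed. With the split into few and many IDs as a term, neither passed, at -0.24 (SE 0.24, adjusted p = 1) for Mt-nd1 and -0.48 (SE 0.24, adjusted p = 0.908) for Mt-nd2.

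Mt-nd5, Mt-nd6 and Mt-nd4l showed no such difference in Wistar vessels, with log2 values of -0.06 (SE 0.30), 0.30 (SE 0.49) and -0.44 (SE 0.77). The median log2 difference was -0.68 over the 6 members and 0.21 over all IDs. In SHRSP vessels 0 of 6 members passed in edgeR, against 0.00908% of all IDs, and 1 had an unadjusted p under 0.05. That gene was Mt-nd1, with a log2 difference of -0.61 (SE 0.21, adjusted p = 0.188), 8024 to 17242 CPM early and 6075 to 13532 CPM late. DESeq2 called no member there either, while it called 358 of 11011 IDs. Mt-nd2 differed by -0.17 (SE 0.17) between the stages in SHRSP. The median log2 difference in SHRSP vessels was -0.36 over the 6 members and 0.45 over all IDs.

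**Figure D4:**
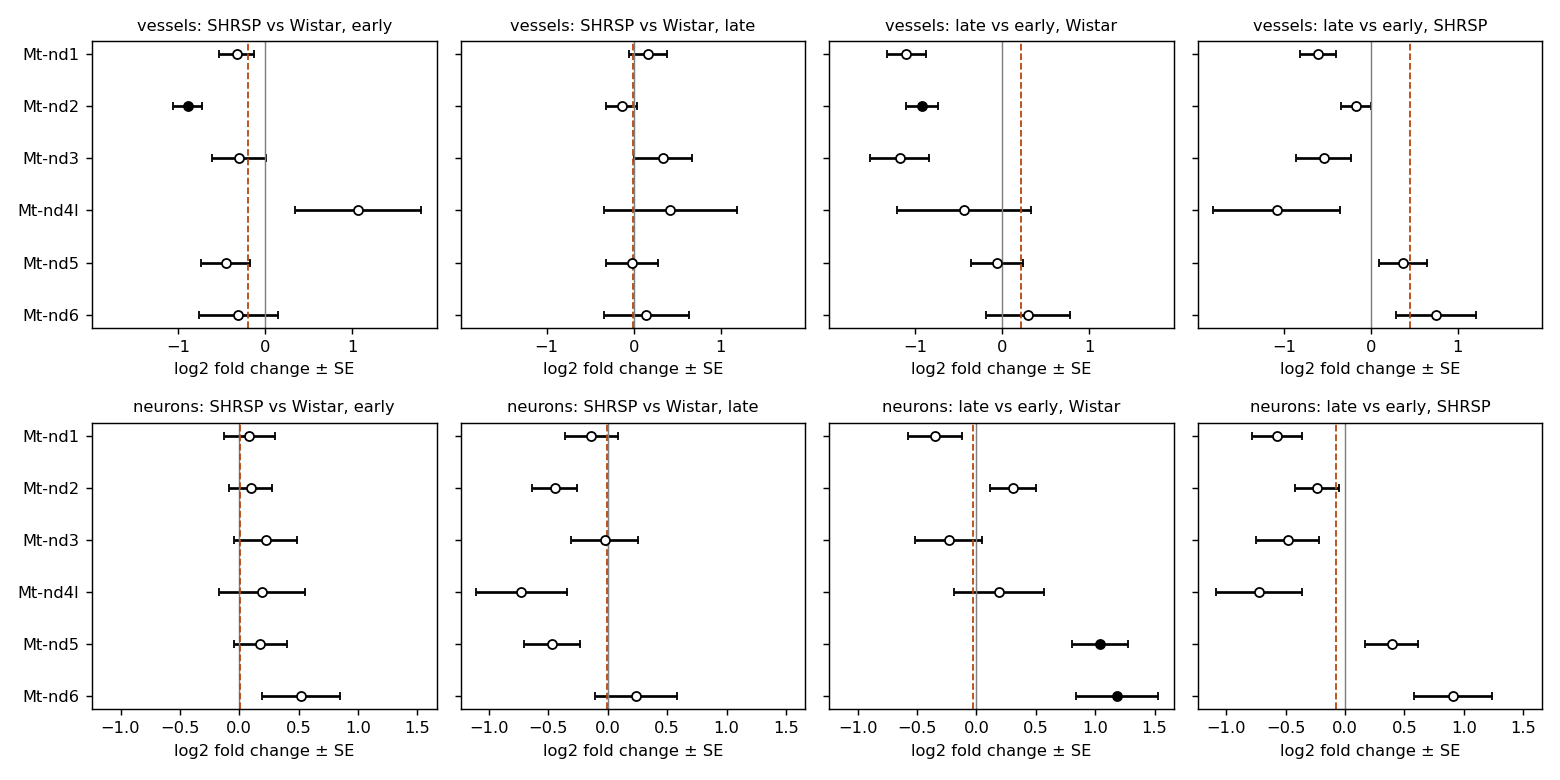
Log2 fold changes ± SE from edgeR for 6 genes in 8 comparisons, vessels above and neurons below; filled points passed an adjusted p of 0.05 and dashed lines give the median of all IDs tested. Mt-nd2 passed in early vessels between the strains and in Wistar vessels between the stages, and Mt-nd5 and Mt-nd6 in Wistar neurons.

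In neurons, no member passed the test between the strains. In edgeR 0 of 6 passed over both stages (0.674% of all IDs), early (0.222%) and late (0.0369%). No member had an unadjusted p under 0.05 there over both stages or early. DESeq2 called no member in any of these, against 159, 73 and 16 of 10833 IDs in that order. Early SHRSP neurons had Mt-nd2 at 5919, 3275, 5123, 3531 and 4489 CPM in animals 386, 383, 380, 377 and 374, and early Wistar neurons at 3773, 5500, 5317, 3145 and 3089 CPM in animals 340, 343, 346, 349 and 368. These groups overlapped almost completely, with a log2 difference of 0.10 (95% interval -0.26 to 0.45). In late neurons Mt-nd2 had -0.45 (SE 0.19, adjusted p = 1 in edgeR) and was the only member with an unadjusted p under 0.05 in that fit. Mt-nd5 had -0.47 there (SE 0.23, 95% interval -0.93 to -0.01). An exact permutation test in late neurons gave p = 0.0476 for Mt-nd5 on CPM and p = 0.0317 without ENSRNOG00000043866, and p = 0.0317 for Mt-nd2 on the latter scale (two-sided, unadjusted).

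Whether the strain difference of Mt-nd2 was larger in vessels than in neurons was tested directly. The log2 difference between the materials was -0.33 (95% interval -0.66 to -0.01, adjusted p = 0.859 in edgeR) and did not pass. The median of this difference was -0.69 over all IDs and -0.14 over the 6 members. In edgeR none of the 6 members and none of the 12117 IDs passed for this contrast (0%), with 1 member at an unadjusted p under 0.05. DESeq2 called no member but 320 of the 12117 IDs.

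Between the stages, Mt-nd5 and Mt-nd6 were higher in late than in early Wistar neurons. These 2 of 6 members passed in edgeR, where 9.31% of all IDs passed and 5.84% passed as higher. Mt-nd5 had 763, 951, 1384, 903 and 510 CPM in early animals 340, 343, 346, 349 and 368 and 1372, 1487, 1210 and 1455 CPM in late animals 350, 351, 353 and 354. Early animal 346 lay within the late range on this scale. Without ENSRNOG00000043866 in the total the values were 533 to 1550 CPM early and 1861 to 2249 CPM late, with no overlap, as for 9.92% of all IDs.

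Mt-nd5 rose 2.06-fold (log2 1.04, SE 0.23, adjusted p = 0.0112 in edgeR), and the exact permutation test gave p = 0.0476 on CPM and p = 0.0159 without the most abundant ID (two-sided, unadjusted). Mt-nd6 rose 2.28-fold in the fit (log2 1.19, SE 0.34, adjusted p = 0.0359), but its groups overlapped, with 268 to 638 CPM early and 428 to 1117 CPM late. It did not pass without animal 340, 343, 350, 353 or 368 (adjusted p of 0.074 to 0.179), and its exact permutation test gave p = 0.127 on CPM.

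These changes went along with the share of ENSRNOG00000043866, which averaged 11.2% ± 7.91 (n = 5) at the early and 32.5% ± 5.48 (n = 4) at the late stage of Wistar neurons (SD). With the split into few and many IDs as a term, Mt-nd5 had 0.70 (SE 0.32) and Mt-nd6 1.12 (SE 0.50), both with an adjusted p of 0.954, and no ID at all passed for this contrast. Early animal 349, the only early Wistar animal with many IDs, had 1198 CPM of Mt-nd5 without ENSRNOG00000043866, below all 4 late animals. The corresponding early SHRSP animal, 383, had 1612 CPM, within the range of 1260 to 1912 CPM of the 5 late SHRSP animals.

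In SHRSP neurons 0 of 6 members passed between the stages in edgeR, against 8.85% of all IDs, although 2 had an unadjusted p under 0.05. Mt-nd1 had 8083, 5484, 8746, 6052 and 8322 CPM in early animals 374, 377, 380, 383 and 386 and 3506, 4033, 4557, 4655 and 3523 CPM in late animals 378, 379, 381, 382 and 384. All late libraries were below all early ones on this scale, which was so in either direction for 13.5% of IDs. Without ENSRNOG00000043866 in the total the groups overlapped, with 5842 to 9243 CPM early and 4406 to 6204 CPM late. The fit gave -0.57 (SE 0.21, adjusted p = 0.0877). Mt-nd6 had 0.91 (SE 0.33, adjusted p = 0.082), with 410 to 813 CPM early and 487 to 1495 CPM late.

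Both SHRSP values from the fit, of Mt-nd1 and Mt-nd6, lay close to the threshold. DESeq2 called Mt-nd6 (adjusted p = 0.0238), among 1480 of 10833 IDs that it called. A fit of the SHRSP groups alone called Mt-nd1, Mt-nd4l and Mt-nd6 (adjusted p of 0.0167, 0.0339 and 0.0141). In that fit 2033 of 9893 IDs passed. The choice of scaling weighs more here than in other comparisons: with plain totals the median of all IDs moved by -0.27 in SHRSP and -0.44 in Wistar neurons. Mt-nd1 then passed in SHRSP with -0.86 (SE 0.23, adjusted p = 0.0191), and Mt-nd5 in Wistar had 0.61 (SE 0.21, adjusted p = 0.032). Under that scaling 1708 of 10833 IDs passed in SHRSP and 3002 of 10833 in Wistar neurons. The Mt-nd6 call in Wistar neurons was lost with plain totals (0.74, SE 0.31, adjusted p = 0.077). The test of whether stage altered the strain difference in neurons passed in edgeR for 0 of 6 members and for no ID (0%). None of the members had an unadjusted p under 0.05 for it, and DESeq2 called 0 of 10833 IDs. The strains are thus not shown to differ in their stage differences.

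The makeup of the 7 genes' counts separated the animals with few and many IDs in neurons. In neuron libraries Mt-nd5 took 5.43% to 6.85% of the members' counts in the 8 animals with few IDs and 8.998% to 14.6% in the 11 with many. Early animals 349 and 383 had 8.998% and 10.1%, above all 8 other early animals. Late animals lay between 10.4% and 14.6%. By stage the groups of neurons were also separate in each strain, at 6.22% to 10.1% early and 10.4% to 13.2% late in SHRSP, and at 5.43% to 8.998% early and 11.3% to 14.6% late in Wistar. No share over all IDs can be given for this measure. On CPM the stages were separate for 13.5% of IDs in SHRSP neurons. In Wistar neurons this held for 9.92% of IDs on CPM without ENSRNOG00000043866.

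In vessels the same share ran from 2.27% to 9.24% with few IDs and from 6.76% to 16.2% with many. The ranges overlap through early SHRSP animal 374 (9.24%), late Wistar animal 354 (8.56%) and late SHRSP animal 378 (6.76%). Animal 378 also had the lowest share of ENSRNOG00000043866 among the vessel libraries with many IDs, 9.69%. Mt-nd1 moved the other way, with 51.0% ± 2.28 of the members' counts in neurons with few IDs (n = 8) and 40.6% ± 5.19 with many (n = 11, SD). In vessels it took 54.3% ± 4.31 (n = 8) and 44.8% ± 6.09 (n = 11). Mt-nd2 differed little on this measure, with 31.3% ± 2.78 and 32.4% ± 3.54 in neurons. The ratio of Mt-nd5 to Mt-nd1 counts was 0.123 ± 0.008 in the 8 neuron libraries with few IDs, a narrow spread, and 0.295 ± 0.083 in the 11 with many. Since these groups were formed from the libraries' own properties, the values are a description and were not tested.

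**Figure D5:**
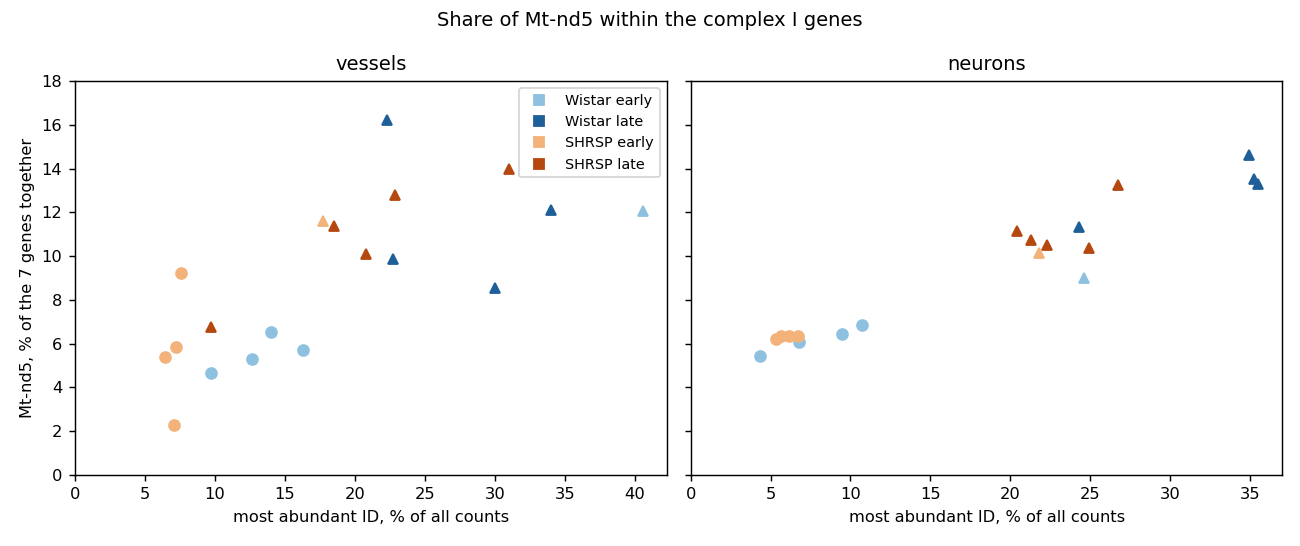
Share of Mt-nd5 in the summed counts of the 7 genes against the share of the most abundant ID in all counts, for vessels (left) and neurons (right); circles are animals with few IDs detected and triangles those with many. In neurons the circles lie between 5.43% and 6.85% and the triangles between 8.998% and 14.6%, with early animals 349 and 383 among the triangles.

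The members did not vary as 1 block from animal to animal. After the mean of each of the 8 groups was subtracted from log2(CPM without ENSRNOG00000043866 + 1), Mt-nd1 correlated with Mt-nd2 (r = 0.717) and with Mt-nd3 (r = 0.712) over the 38 libraries. Mt-nd2 correlated with Mt-nd3 at 0.437 and with Mt-nd5 at 0.431. Mt-nd1 and Mt-nd5 were nearly unrelated (r = 0.089), and Mt-nd6 ran against Mt-nd1 (r = -0.411) and Mt-nd3 (r = -0.342). Mt-nd4l had values between -0.164 (with Mt-nd5) and 0.163 (with Mt-nd3). The libraries come in pairs from 19 animals and share a total within each library, so these values describe the data and carry no test.

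Among 3640 other IDs with a mean of at least 50 CPM, the patterns closest to the summed members were those of ENSRNOG00000031979 (r = 0.863), ENSRNOG00000030700 (r = 0.792), ENSRNOG00000031766 (r = 0.783), ENSRNOG00000034234 (r = 0.714) and ENSRNOG00000030371 (r = 0.666), on the same centred scale over 38 libraries. All 5 are abundant, with means of 8028 to 21689 CPM without ENSRNOG00000043866. The CPM of ENSRNOG00000043866 itself ran against the summed CPM of the members in vessels (r = -0.747, n = 19). Part of that value is fixed by the shared total. When the members' CPM was taken without that ID in the total, r was -0.468 in vessels and 0.148 in neurons (n = 19 each).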

How the data were processed

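The authors deposited 1 table of raw counts, whole numbers for 32883 Ensembl IDs in 38 libraries. Per the labels' protocols, RNA came from a PicoPure kit and libraries from a QuantSeq 3′ kit in its forward form. Tools listed in the submitters' processing notes are STAR 2.5.3a, HTSeq 0.6.1, DESeq2 1.18.1 and FastQC 0.11.5. The sources used here give no build, annotation or strand setting.

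Each material was fitted with edgeR 4.0.16 in R 4.3.3 (filterByExpr, TMM scaling, robust quasi-likelihood F test) over its 19 libraries and 4 groups, with 11011 IDs in vessels and 10833 in neurons. Materials were compared over 12117 IDs with the animal as a block. Contrasts were two-sided, and a call is a Benjamini-Hochberg adjusted p under 0.05 over all IDs tested. An SE is the log2 difference divided by the square root of F, and an interval is 1.96 SE to either side. Such an interval takes no account of the limited degrees of freedom of the F test and is approximate. It can exclude 0 where the unadjusted p is above 0.05. All IDs of the set, ENSRNOG00000043866 and the 5 IDs most like the summed members are named. The set and the lists were chosen with earlier results of these data known. Lists of nuclear complex I genes, other mitochondrial genes and cell type markers need names, and 0 IDs matched the reference table, so they were not used here.

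The block rests on the number in the titles that both libraries of an animal share. The deviations of the 19 pairs correlated between -0.236 and 0.413 (median 0.0467, 5 pairs over 0.1). All 72 pairs of libraries from the same group differed by more than counting error (chi-square per degree of freedom at least 4.88). P-values measure the spread between numbered animals together with cutting and library making. In edgeR that spread draws on all IDs tested, so a member's p-value does not rest on its own values alone. For the Mt-nd2 calls in early vessels and between the Wistar stages, the SE from the animals' own spread was larger than the fitted SE. For Mt-nd4l in early vessels it was smaller (0.67 against 0.73). Limits from counts cover counting error only. The early strain contrast was tried on simulated counts with planted changes in abundant IDs, all larger than the differences reported here. Changes of the reported size, the split by IDs detected and the animal block were not simulated. Alternatives used other scalings and filters, DESeq2 1.42.0, limma 3.58.1, single animals left out, the split by IDs detected and permutation tests (SciPy 1.17.1). Of 144 permutation tests of members within the materials, counted over all scales, 28 gave an unadjusted p under 0.05.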

Additional observations from a re-analysis of the deposited data

Results flagged for a closer look

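In groups of 4 or 5 libraries, the highest or lowest value of a gene stood apart from the others by Dixon's test (95% level) in 11 of 160 groups and measures tested, and chance flags about 1 in 20 groups. On CPM without ENSRNOG00000043866, Mt-nd2 in early Wistar vessels was highest in animal 346 (22292 against 10250 to 12594 in the others) and Mt-nd2 in late Wistar neurons was lowest in animal 353 (4555 against 5916 to 6048). Mt-nd4l in early Wistar neurons was highest in animal 346, at 446 CPM (others 116 to 140) and at 499 CPM without ENSRNOG00000043866. Mt-nd5 was lowest in early SHRSP vessels in animal 377 (486 CPM against 1628 to 2013), whose vessel library had the fewest IDs detected, 4104. In late SHRSP neurons animal 379 was highest for Mt-nd5, at 1401 CPM (others 995 to 1110) and at 13.2% of the members' counts (others 10.4% to 11.1%).

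As shares of the members' counts, Mt-nd3 took 10.2% and Mt-nd5 10.1% in the neuron library of early SHRSP animal 383, against at most 6.79% and 6.36% in the other 4. Mt-nd5 took 12.1% in the vessel library of early Wistar animal 349, against at most 6.53%. These are the early animals with many IDs detected. Mt-nd4l took 2.51% in the neuron library of late Wistar animal 350, against at most 1.32%.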

How the results depend on the processing

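Of 408 recomputed counts of called members, 352 stayed within 1.5 times the main count and 56 did not. These include comparisons with 0 members called, where staying at 0 counts as unchanged. In vessels the Mt-nd2 call was lost in 17 of 28 alternatives over both stages, 4 of 32 early and 12 of 31 between the Wistar stages. In Wistar neurons Mt-nd5 was lost in 3 of 32 and Mt-nd6 in 13 of 32. Between the materials only Mt-nd3 was lost, in 1 of 30. For the strain difference in vessels over both stages (1 member called), 0 were called with DESeq2-type size factors, plain totals, DESeq2, no filter on low counts, limma trend, the split by IDs as a term and the animals with many IDs alone, and 0 to 1 when single animals were left out. In early vessels (1 called), 0 were called with DESeq2-type size factors, in DESeq2 and in the animals with many IDs alone, where each strain has 1 early animal, and 0 to 1 without single animals, the loss being that of animal 346. For the stages in Wistar vessels (1 called), 2 were called with plain totals and with TMM when ENSRNOG00000043866 was left out, 0 in DESeq2, limma trend, the split as a term, the groups compared alone and the animals with many IDs alone, and 0 to 2 without single animals. There Mt-nd2 was lost without animals 346, 350, 353, 368 or 383 (adjusted p of 0.0577 to 1), and Mt-nd1 passed in 13 of 19 such fits. For the stages in SHRSP neurons (0 called), 1 was called with plain totals and in DESeq2, 3 in the groups compared alone, and 0 to 1 without single animals (Mt-nd1 without 346, Mt-nd6 without 381). In Wistar neurons (2 called), 1 was called without the filter and in limma trend, 0 with the split as a term, in the groups compared alone and in the animals with many IDs alone, and 1 to 2 without single animals. Vessels against neurons gave 4 to 5 calls without single animals (5 without 374 or 377), 5 in limma trend, 3 in the animals with many IDs alone and 4 in the other alternatives. No replicate block (the animal dropped) also gave 4, with Mt-nd1 at 0.97 and Mt-nd2 at 0.86, and changed no call of a member. No called member changed direction. Counts over all IDs moved more: without single animals, 28 in early vessels became 7 to 1137, 959 between the stages in SHRSP neurons became 180 to 1951 and 1009 in Wistar neurons became 197 to 1848, and 6124 between the materials became 3075 without the block. Between the materials limma trend called 6824 of 12117 IDs (631 higher in vessels) and DESeq2 7403 (690 higher). For the stages in Wistar neurons limma trend called 1220 of 10833 IDs, the fit without the filter 755 of 18704 and the groups compared alone 83 of 9941. Plain totals moved the median of all IDs by 0.18 in early and 0.14 in late vessels between the strains, and DESeq2-type size factors by 0.19 between the materials. The causes of these changes were not tested. limma voom gave no value in vessels or across materials, where its fitted trend of the spread fell below 0. Limma trend, the fits of animals with few or many IDs alone and the permutation tests were added after the data were seen. Mt-nd4, with 47 counts in all, entered only the fits without the filter.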
